A study of Oryza sativa with 6 samples.

Results

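The 35 genes described here are the rice genes that carry the name of a sugar carrier or of an enzyme of sucrose or trehalose metabolism: SWEET, SUT, MST, SPS, SUS, CIN, TPS or TPP followed by a number. A gene was included when a probe set annotated to it alone had such a symbol or RefSeq synonym, with or without the prefix Os. Terpene synthases, which share the letters TPS, were left out, and each gene is represented by its brightest probe set, by the mean of the 6 arrays. The 35 genes are part of 14662 genes with a probe set of their own, among 41770 probe sets. They comprise 9 SWEET, 3 SUT, 2 MST, 5 SUS and 6 CIN genes, 3 genes named SPS and 7 named TPP, and no TPS gene. For 3 of them the shared name is probably not a sugar name. OsSPS1 and OsSPS2 are, in rice, also the symbols of solanesyl diphosphate synthases, which make the side chains of ubiquinone and plastoquinone, while the sucrose phosphate synthases of the same gene table carry the suffix F (OsSPS2F, OsSPS3F, OsSPS4F). TPP2 has the synonym TPPII, the usual name of the protease tripeptidyl peptidase II. The gene table holds symbols without descriptions, so these 3 genes are kept in the counts as the rule gives them but are described apart, and 32 genes remain under sugar names. OsSPS1 was given as a marker of this gene group, and its likely identity goes against that use.

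Sucrose made in leaves by sucrose phosphate synthase travels in the phloem to the root, where SUT proteins carry it together with protons and SWEET proteins let sugars pass down their gradient across membranes. In the root sucrose is split by cell wall invertases (CIN) into glucose and fructose, which MST proteins take up. Sucrose synthase (SUS) instead splits it into fructose and UDP-glucose. Trehalose-phosphate synthase (TPS) makes trehalose phosphate, a signal of sugar status that trehalose-phosphate phosphatase (TPP) removes. SWEET genes are widely studied in rice because pathogenic bacteria switch some of them on.

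The roots came from 3-week-old plants of Oryza sativa cultivar Swarna MTU7029. Plants were given a cell suspension of the basidiomycete yeast Rhodotorula mucilaginosa JGTA-S1, and roots were taken 6 h and 24 h later. Roots with no treatment, taken at 0 h, were the control. There were 2 Affymetrix arrays at each of the 3 times, and no untreated roots of 6 h or 24 h are among them, so yeast and elapsed time cannot be told apart. The labels do not say whether the arrays of a time hold RNA from separate plants, so p-values reflect only how much these arrays vary, which may be technical variation.

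Values are deposited signals per probe set, read as log2, so a difference of 1 is a doubling. Probe sets respond differently to RNA, so a level was compared only with the same probe set on another array or with the distribution of its own array. Array medians lay between 2.79 and 2.93, but the control arrays had a narrower spread of signal (SD over probe sets 1.50 and 1.46) than the treated arrays (1.62 to 1.82). The Pearson coefficient across probe sets was 0.936 between the 6 h arrays and 0.976 between those of 24 h, but 0.868 between the controls. Of 17 root markers, 7 lay above the upper quartile of every array, among them the silicon exporter Lsi2, and 0 passed the test at 6 h or 24 h. Of 3 green tissue markers, 1 (CAB1R) also lay above the upper quartile of every array, and 0 passed. Such levels occurred in both lists, so they do not tell root RNA from shoot RNA. CAB1R, a chlorophyll-binding protein gene, differed by -1.06 at 6 h (limma adjusted p = 0.131) and -0.07 at 24 h. CAB2R, of the same family, differed by -0.75 and -0.39, and OsrbcS, for the small subunit of Rubisco, by 0.43 and 0.23. The part of shoot RNA in the results below was not tested. As in any bulk sample, fewer cells of a type and less RNA per cell cannot be told apart.

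In all 3 comparisons a single limma model on the 6 arrays gave the test, with Benjamini-Hochberg adjustment over all 41770 probe sets, and a gene is said to have risen or fallen where the adjusted p was under 0.05. At 6 h, 1 of the 35 genes rose (OsSPS1) and 0 fell, while 2.09% of the 14662 genes rose and 1.53% of all probe sets were called in either direction. At 24 h, 2 rose (OsSPS1 and OsSWEET1a) and 0 fell, while 2.97% of genes rose and 2.21% of all probe sets were called. Under sugar names alone, 0 of 32 genes passed at 6 h and 1 at 24 h. The 6 h and 24 h comparisons share their control arrays, so likeness between them carries no weight, and their values stand side by side.

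At an unadjusted p under 0.05, 11 of the 35 genes read higher and 0 lower at 6 h, against 19.0% and 4.27% of the 14662 genes. At 24 h, 13 read higher and 4 lower, against 22.1% and 3.94% of genes. Both arrays of 6 h lay above both control arrays for 12 genes (34.3% of all genes did so) and below them for 6 (14.6%). At 24 h this held for 15 genes above (42.6% of all genes) and 6 below (16.3%). The median log2 difference of the 35 genes was 0.21 at 6 h and 0.07 at 24 h, beside 0.20 and 0.26 over all genes. The share of genes with separated groups lay near that of the array. The share that read higher at the unadjusted threshold was 31.4% at 6 h and 37.1% at 24 h, and without the 3 shared names 9 and 10 of 32 genes did.

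**Figure D1:**
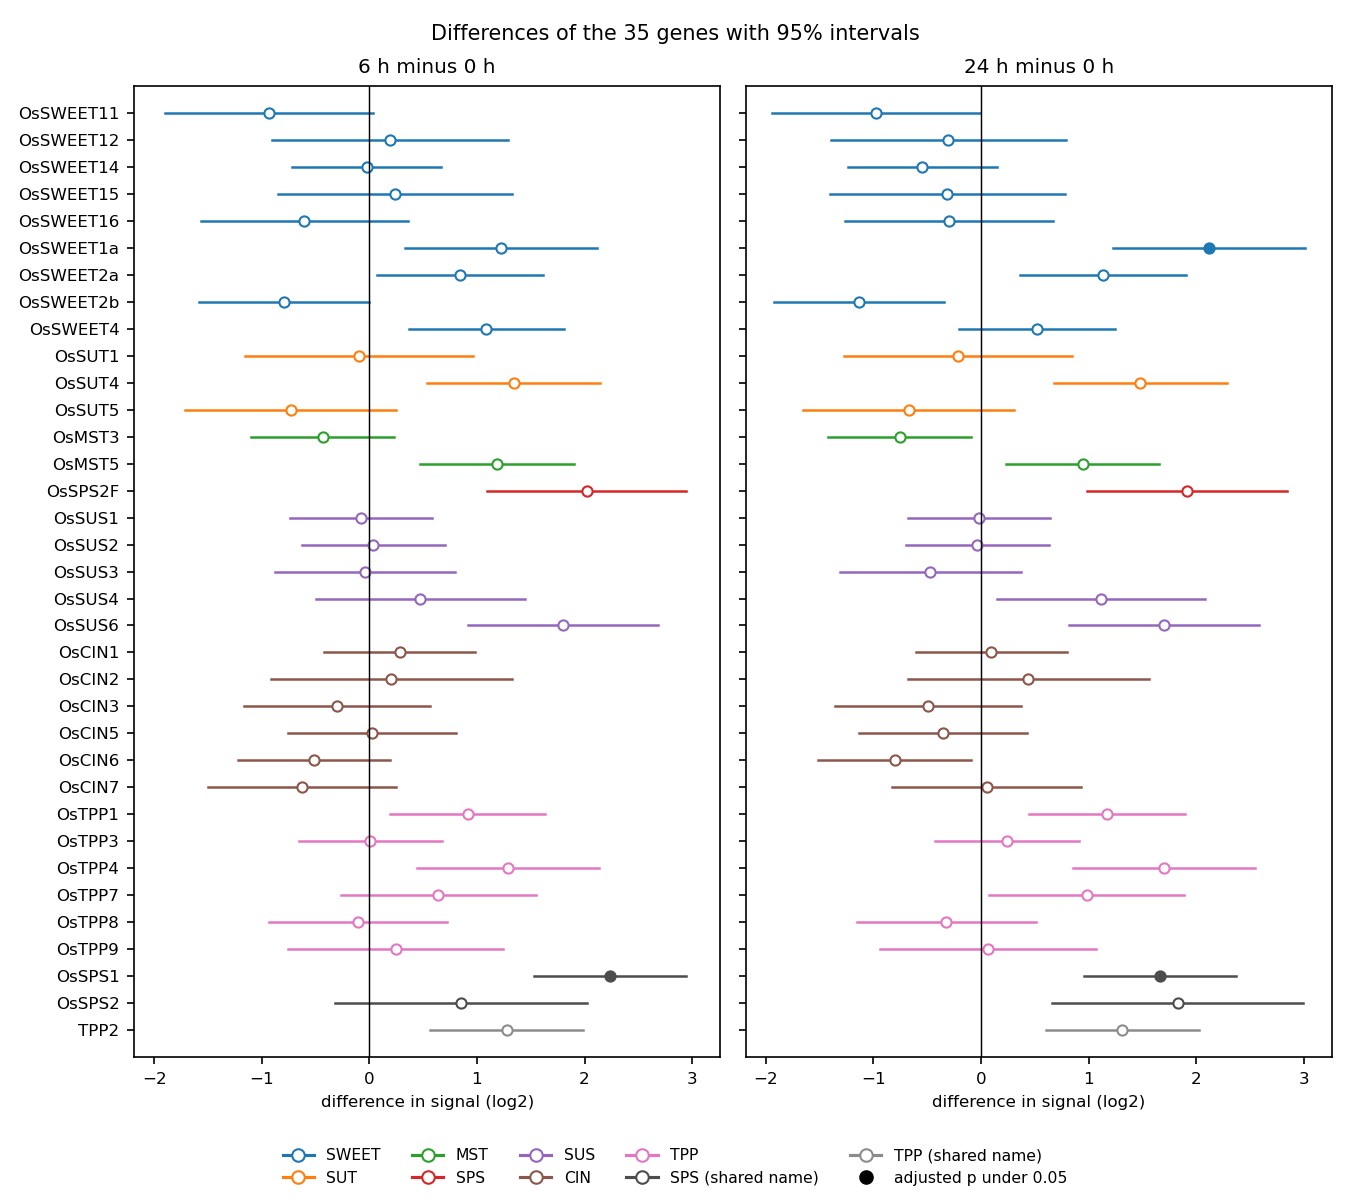
Log2 difference from the 0 h roots for each of the 35 genes at 6 h and at 24 h, with 95% intervals from the limma model (2 arrays per time); filled points have an adjusted p under 0.05. The differences at 24 h run from -1.13 for OsSWEET2b to 2.12 for OsSWEET1a, and OsSPS1 is filled at both times.

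Among the carriers, OsSWEET1a had the largest 24 h difference of the 35 genes. It belongs to clade I of the SWEET family. OsSWEET1a read 3.89 and 3.63 at 0 h, 5.50 and 4.46 at 6 h, and 5.84 and 5.92 at 24 h. All 4 treated arrays lay above both control arrays, the 2 arrays of 6 h stood apart from each other, and the 24 h arrays were the highest. At 24 h it rose 4.35-fold (log2 difference 2.12 ± 0.39, SE, n = 2 arrays per time, 95% interval 1.23 to 3.01, limma adjusted p = 0.0410). At 6 h the difference was 1.22 ± 0.39 and did not pass (adjusted p = 0.148). The 24 h call was lost when the second control array was left out (adjusted p = 0.0636), when either 6 h array was left out (0.0635) or when either 24 h array was left out (0.298 and 0.404). The difference itself then stayed between 1.99 and 2.17.

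The other clade I genes read in opposite directions, and neither passed. OsSWEET2a, whose counterpart in Arabidopsis moves glucose at the vacuole membrane and limits sugar loss from roots, read 4.47 and 4.48 at 0 h, 5.68 and 4.96 at 6 h, and 5.66 and 5.56 at 24 h. The treated arrays all lay above the controls, which nearly coincided. The differences were 0.84 ± 0.33 at 6 h and 1.13 ± 0.33 at 24 h, and neither passed (limma adjusted p = 0.226 and 0.114). Quantile normalization lowered these differences to 0.34 and 0.50, and cyclic loess to 0.26 and 0.43. A second probe set of the same gene differed by 1.41 and 1.59 (limma adjusted p = 0.0964 and 0.0660). OsSWEET2b read 2.23 and 2.97 at 0 h, 1.67 and 1.95 at 6 h, and 1.48 and 1.45 at 24 h. All its treated arrays lay below both controls, and the 24 h difference of -1.13 ± 0.34 had a limma adjusted p of 0.120. Its signal was low, below the array median on 5 of the 6 arrays. The 24 h difference of OsSWEET2b was -0.89 with quantile normalization and -0.75 with cyclic loess.

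OsSWEET4, the clade II member, a hexose carrier known from grain filling, read 6.72 and 6.19 at 0 h, 7.61 and 7.48 at 6 h, and 6.90 and 7.06 at 24 h. Its highest arrays were those of 6 h, unlike OsSWEET1a, though all treated arrays exceeded both controls. The difference was 1.09 ± 0.31 at 6 h (2.13-fold, limma adjusted p = 0.121) and 0.52 ± 0.31 at 24 h (adjusted p = 0.367). After quantile normalization the 24 h difference was 0.04.

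The 4 clade III genes, sucrose carriers, include the best known targets of the bacterial blight pathogen, OsSWEET11 and OsSWEET14. None of the 4 passed, and the 24 h differences all read lower, between -0.97 and -0.30 with a median of -0.43. Quantile normalization gave 3 of 4 lower and cyclic loess 2 of 4. Of all genes, 64.3% read higher at 24 h as deposited, 56.8% after quantile normalization and 54.8% after cyclic loess. OsSWEET11 read 4.39 and 3.33 at 0 h, 3.08 and 2.77 at 6 h, and 3.17 and 2.59 at 24 h. Its treated arrays lay below both controls, which were themselves far apart, and the 24 h difference was -0.97 ± 0.42 (unadjusted p = 0.0482, limma adjusted p = 0.229). OsSWEET14 lay above the upper quartile of every array and differed by -0.03 at 6 h and -0.54 ± 0.30 at 24 h (adjusted p = 0.328). OsSWEET12 (0.19 and -0.30) and OsSWEET15 (0.24 and -0.31) overlapped the controls at 6 h, and OsSWEET15 lay below the median of every array. OsSWEET16 of clade IV, a group known from the vacuole membrane in Arabidopsis, was also below every array's median, with differences of -0.61 and -0.30.

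**Figure D2:**
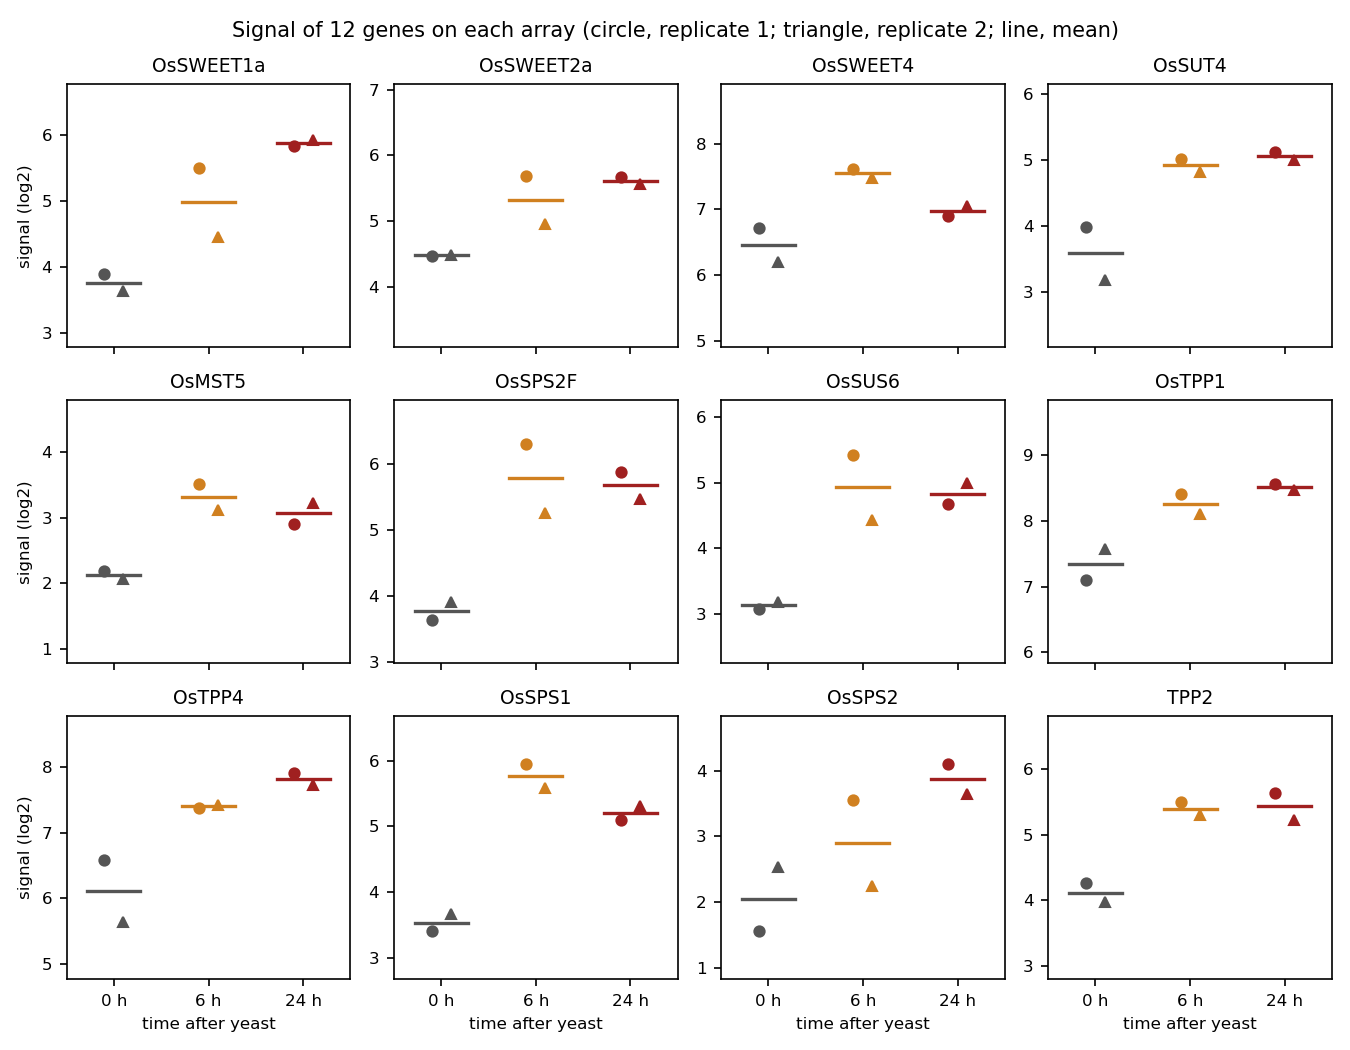
Deposited log2 signal of 12 genes on each array at 0 h, 6 h and 24 h after the yeast (x axis). Circles are the first array of a time, triangles the second, and a short horizontal line marks the mean of each time. Every panel shows 4 log2 units. OsSWEET1a is highest at 24 h (5.84 and 5.92), OsSWEET4 at 6 h (7.61 and 7.48), and the first 6 h array lies above the second for OsSPS2F and OsSUS6.

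The sucrose carrier OsSUT4 read 3.99 and 3.18 at 0 h, 5.03 and 4.83 at 6 h, and 5.12 and 5.00 at 24 h. The treated arrays formed a tight group above both controls. The differences of 1.34 ± 0.35 (2.54-fold) at 6 h and 1.48 ± 0.35 (2.79-fold) at 24 h did not pass (limma adjusted p = 0.0967 and 0.0711). Without the first control array, the higher one, they were 1.74 and 1.88 and passed (adjusted p = 0.0339 and 0.0288), and without the second they were 0.94 and 1.08 (0.159 and 0.111). OsSUT1, a sucrose carrier linked to the phloem in rice, differed by -0.10 and -0.22, and its controls read 2.01 and 3.30. Leaving out the second control array turned the OsSUT1 differences to 0.55 and 0.43, and leaving out the first gave -0.74 and -0.86. OsSUT5 differed by -0.73 and -0.67, with controls of 1.90 and 3.18. Without the first control array OsSUT5 differed by -1.37 and -1.31, and without the second by -0.09 and -0.03.

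The hexose carriers read in opposite directions, and neither passed. OsMST5 read 2.18 and 2.06 at 0 h, 3.51 and 3.11 at 6 h, and 2.91 and 3.23 at 24 h. The 4 treated arrays lay above both controls, with differences of 1.19 ± 0.31 at 6 h (2.28-fold, limma adjusted p = 0.0975) and 0.94 ± 0.31 at 24 h (0.141). OsMST3 read 6.76 and 7.01 at 0 h, 6.49 and 6.42 at 6 h, and 6.08 and 6.19 at 24 h. Its treated arrays lay below both controls, with differences of -0.43 ± 0.29 and -0.75 ± 0.29 (24 h unadjusted p = 0.0309, adjusted p = 0.189).

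Sucrose synthesis was represented by OsSPS2F, a sucrose phosphate synthase by its symbol. OsSPS2F read 3.64 and 3.90 at 0 h, 6.32 and 5.27 at 6 h, and 5.89 and 5.48 at 24 h. Every treated array exceeded both controls by over 1 log2 unit. It was 4.06-fold higher at 6 h (log2 difference 2.02 ± 0.40) and 3.77-fold higher at 24 h (1.91 ± 0.40), and just missed the threshold at both times (limma adjusted p = 0.0548 and 0.0539). It passed in 4 of 16 alternatives at 6 h and in 5 of 16 at 24 h. Among the 16 is a fold of at least 2, which reused the adjusted p given above, so its outcome was fixed. OsSPP1, a phosphatase of the next step, differed by -0.37 at 6 h and 0.08 at 24 h (limma adjusted p = 0.706 and 0.942).

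The 5 sucrose synthases held both the steadiest and some of the most separated values. OsSUS1 read 11.14 and 11.00 at 0 h, 11.08 and 10.91 at 6 h, and 11.03 and 11.07 at 24 h. The groups overlapped throughout. Its difference was -0.08 at 6 h (95% interval -0.73 to 0.58) and -0.02 at 24 h (-0.68 to 0.64), and changes within these intervals could not be resolved. OsSUS2, also close to 11 on every array, differed by 0.04 and -0.04 (24 h interval -0.70 to 0.63). A second probe set of OsSUS2, at a signal between 8.14 and 8.92, differed by -0.37 and 0.10.

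OsSUS6 read 3.08 and 3.18 at 0 h, 5.43 and 4.44 at 6 h, and 4.67 and 5.00 at 24 h. All treated arrays lay more than 1 log2 unit above both controls. It was 3.48-fold higher at 6 h (1.80 ± 0.38, limma adjusted p = 0.0626) and 3.26-fold higher at 24 h (1.70 ± 0.38, adjusted p = 0.0622), without passing. OsSUS4 read 5.13 and 4.88 at 0 h, 6.10 and 4.87 at 6 h, and 6.19 and 6.06 at 24 h. The 6 h arrays straddled the controls and the 24 h arrays lay above them, with a 24 h difference of 1.12 ± 0.42 (unadjusted p = 0.0289, limma adjusted p = 0.184). The OsSUS4 difference at 24 h was 0.47 with quantile normalization and 0.44 with cyclic loess (limma adjusted p = 0.552 and 0.578), and at 6 h it turned to -0.06 and -0.11. OsSUS3 lay below the median of every array and differed by -0.04 and -0.47.

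Of the 6 cell wall invertases 0 passed at either time, and their median difference was -0.14 at 6 h and -0.15 at 24 h. As deposited, 3 read lower at each time, while after quantile normalization or cyclic loess all 6 did, with 24 h medians of -0.57 and -0.61. Of all genes, 61.4% read higher at 6 h and 64.3% at 24 h as deposited. Quantile normalization gave 56.5% and 56.8%, and cyclic loess 55.3% and 54.8%. OsCIN6 read 4.41 and 4.20 at 0 h, 3.72 and 3.86 at 6 h, and 3.28 and 3.73 at 24 h. Its treated arrays lay below both controls, and its difference was -0.52 ± 0.31 at 6 h and -0.80 ± 0.31 at 24 h (24 h unadjusted p = 0.0312, limma adjusted p = 0.190). In the gene table OsCIN6 lies next to OsCIN5, with 0 protein-coding genes between them, and OsCIN5 differed by 0.02 and -0.35. OsCIN3 and OsCIN2 are likewise neighbours. OsCIN2, known for its part in grain filling, differed by 0.21 and 0.44, with controls of 4.08 and 5.52 that spanned all its treated arrays. OsCIN3 differed by -0.30 and -0.49, OsCIN1 by 0.28 and 0.10, and OsCIN7 by -0.63 and 0.05.

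Of the 6 trehalose-phosphate phosphatases, 5 read higher than the controls at each time, with medians of 0.44 at 6 h and 0.61 at 24 h, and 0 passed. Of all genes, 61.4% read higher at 6 h and 64.3% at 24 h. Quantile normalization and cyclic loess each left 4 of 6 higher at both times, and quantile normalization lowered the medians to 0.14 and 0.36. OsTPP4 read 6.58 and 5.64 at 0 h, 7.37 and 7.42 at 6 h, and 7.90 and 7.72 at 24 h. The controls lay apart, yet every treated array was above both. Its difference was 1.29 ± 0.37 at 6 h (2.44-fold, limma adjusted p = 0.119) and 1.70 ± 0.37 at 24 h (3.25-fold, adjusted p = 0.0571). Without the first control array these became 1.76 and 2.17 and passed (adjusted p = 0.0328 and 0.0242), and without the second they were 0.82 and 1.23 (0.207 and 0.0820).

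OsTPP1, known for its effect on tolerance of cold and salt in rice, read 7.11 and 7.58 at 0 h, 8.41 and 8.11 at 6 h, and 8.56 and 8.47 at 24 h. The treated arrays did not overlap the controls, and the differences were 0.91 ± 0.31 and 1.17 ± 0.31 (limma adjusted p = 0.173 and 0.0944). OsTPP7, known from germination without oxygen, read 6.30 and 5.82 at 0 h, 7.11 and 6.28 at 6 h, and 7.33 and 6.75 at 24 h. Its 6 h arrays overlapped the controls and its 24 h arrays did not, with a 24 h difference of 0.98 ± 0.39 (unadjusted p = 0.0372, adjusted p = 0.204). OsTPP3 (0.01 and 0.24), OsTPP9 (0.25 and 0.07) and OsTPP8 (-0.10 and -0.32) showed smaller differences.

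**Figure D3:**
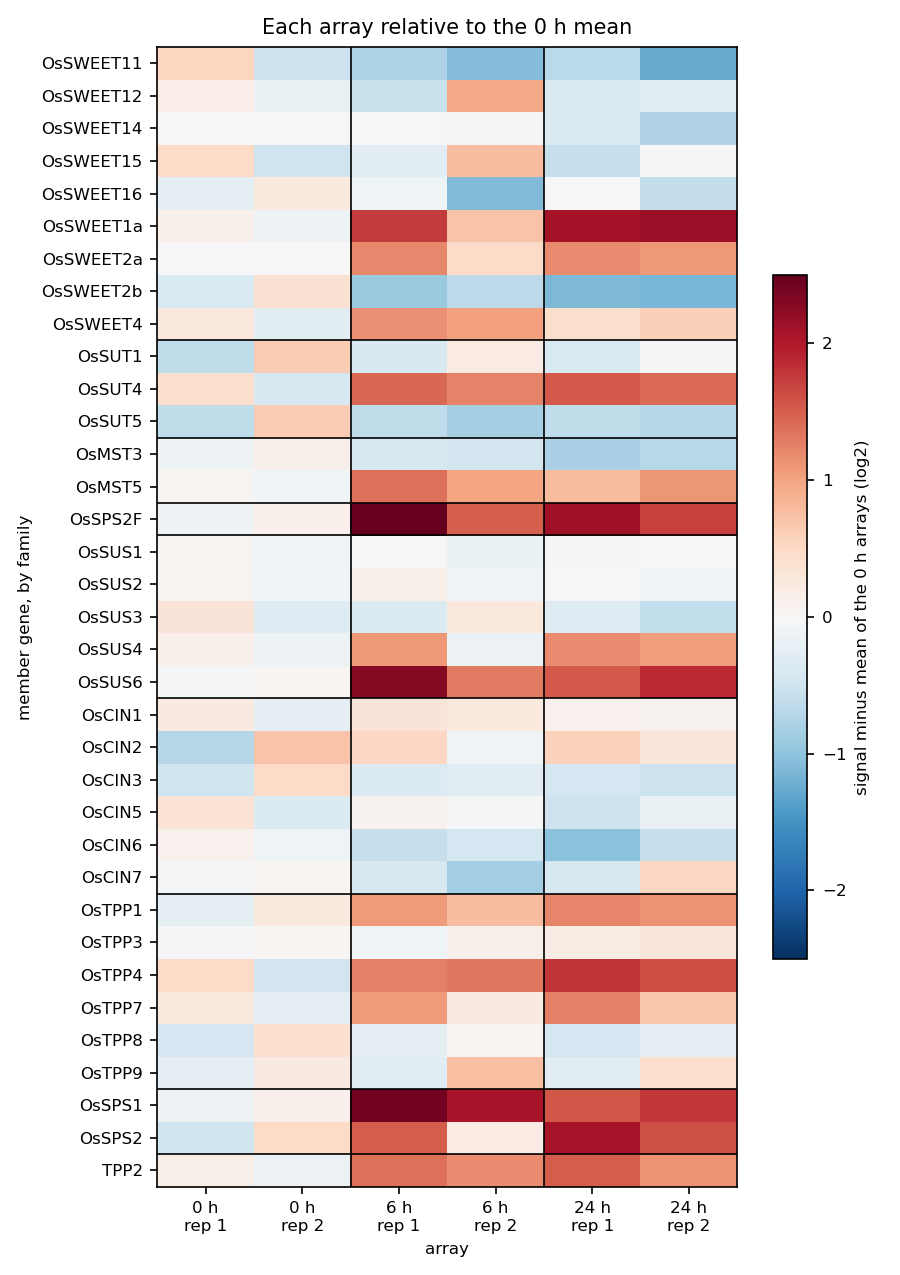
Log2 signal of the 35 genes on each array minus the mean of the 0 h arrays, grouped by family (rows), with arrays ordered by time (columns) and the colour scale running from -2.5 to 2.5. In 11 genes all 4 treated arrays lie above both controls, and in 4 genes (OsCIN6, OsMST3, OsSWEET11 and OsSWEET2b) all 4 lie below, patterns shown by 28.9% and 9.32% of all genes.

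Of the 3 genes that share a name with the sugar genes, OsSPS1 passed at both times, while TPP2 and OsSPS2 passed at neither. OsSPS1 read 3.40 and 3.66 at 0 h, 5.95 and 5.58 at 6 h, and 5.09 and 5.30 at 24 h. All treated arrays lay well above the controls, those of 6 h highest. It rose 4.71-fold at 6 h (log2 difference 2.24 ± 0.31, 95% interval 1.53 to 2.94, limma adjusted p = 0.0218) and 3.17-fold at 24 h (1.67 ± 0.31, adjusted p = 0.0412). Of the single arrays left out in turn, the calls were lost at both times when any treated array was left out (adjusted p between 0.0668 and 0.404) but not when either control array was.

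TPP2 read 4.26 and 3.97 at 0 h, 5.49 and 5.29 at 6 h, and 5.63 and 5.23 at 24 h, with no overlap between treated arrays and controls. Its differences were 1.28 ± 0.31 and 1.31 ± 0.31 (limma adjusted p = 0.0836 and 0.0706). OsSPS2 read 1.56 and 2.53 at 0 h, 3.56 and 2.24 at 6 h, and 4.10 and 3.64 at 24 h. The 6 h arrays overlapped the controls and the 24 h arrays did not, with differences of 0.86 ± 0.51 and 1.83 ± 0.51 (adjusted p = 0.395 and 0.101).

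Between 24 h and 6 h, limma called 0 of the 35 genes and 0 of the 41770 probe sets (0.0%). At an unadjusted p under 0.05 there were 1097 probe sets, of which 734 read higher and 363 lower at 24 h, and 1 of the 35 genes, which read higher (2.13% of all genes did). That gene was OsSWEET1a, with a 24 h minus 6 h difference of 0.90 ± 0.39 (95% interval 0.01 to 1.79, unadjusted p = 0.0488, adjusted p = 1.00). OsSWEET4 and OsSPS1 both differed by -0.57 between these times, with an unadjusted p of 0.109 for OsSWEET4 and 0.0999 for OsSPS1. The median over the 35 genes was -0.10, beside 0.05 over all genes. The 24 h arrays lay above both 6 h arrays in 5 genes (19.3% of all genes did) and below them in 8 (14.6%).

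Arrays of the same time differed in these genes too. The control arrays were more than 0.8 apart in 10 of the 35 genes, and in 26.0% of all probe sets. The second control array was the higher one in 6 of the 10. All 4 treated arrays lay above both controls in 11 of the 35 genes, against 28.9% of the 14662 genes, and below both in 4, against 9.32%. Of those 11 genes, the first 6 h array was above the second in 10, and over all 35 genes in 24.

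The scaling of the arrays moved the calls. Quantile normalization and cyclic loess shifted the median over all genes by -0.09 and -0.12 at 6 h and by -0.16 and -0.20 at 24 h, relative to the deposited values, and median centring shifted it by 0.12 and 0.08. Under quantile normalization or cyclic loess 0 of the 35 genes passed. At an unadjusted p under 0.05, quantile normalization had 8 genes higher and 3 lower at 6 h, and 10 higher and 6 lower at 24 h. In the same setting 13.5% of all genes were higher and 6.38% lower at 6 h, and 12.6% and 5.53% at 24 h. OsSWEET1a in these 2 settings differed by 1.65 and 1.42 at 24 h (limma adjusted p = 0.115 and 0.134). OsSPS1 differed by 1.93 and 1.67 at 6 h (0.0670 and 0.0736), and by 1.26 and 0.97 at 24 h (0.136 and 0.197), against 1.67 as deposited. OsMST3 at 24 h was -0.75 as deposited, -1.26 with quantile normalization and -1.32 with cyclic loess, and OsCIN6 was -0.80, -1.24 and -1.28. Across the 4 scalings, 11 genes changed sign at 6 h and 8 at 24 h, each with a deposited difference of at most 0.47 in size. They include OsSUS1, OsSUS2, OsCIN1, OsCIN2 and OsTPP9 at both times.

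**Figure D4:**
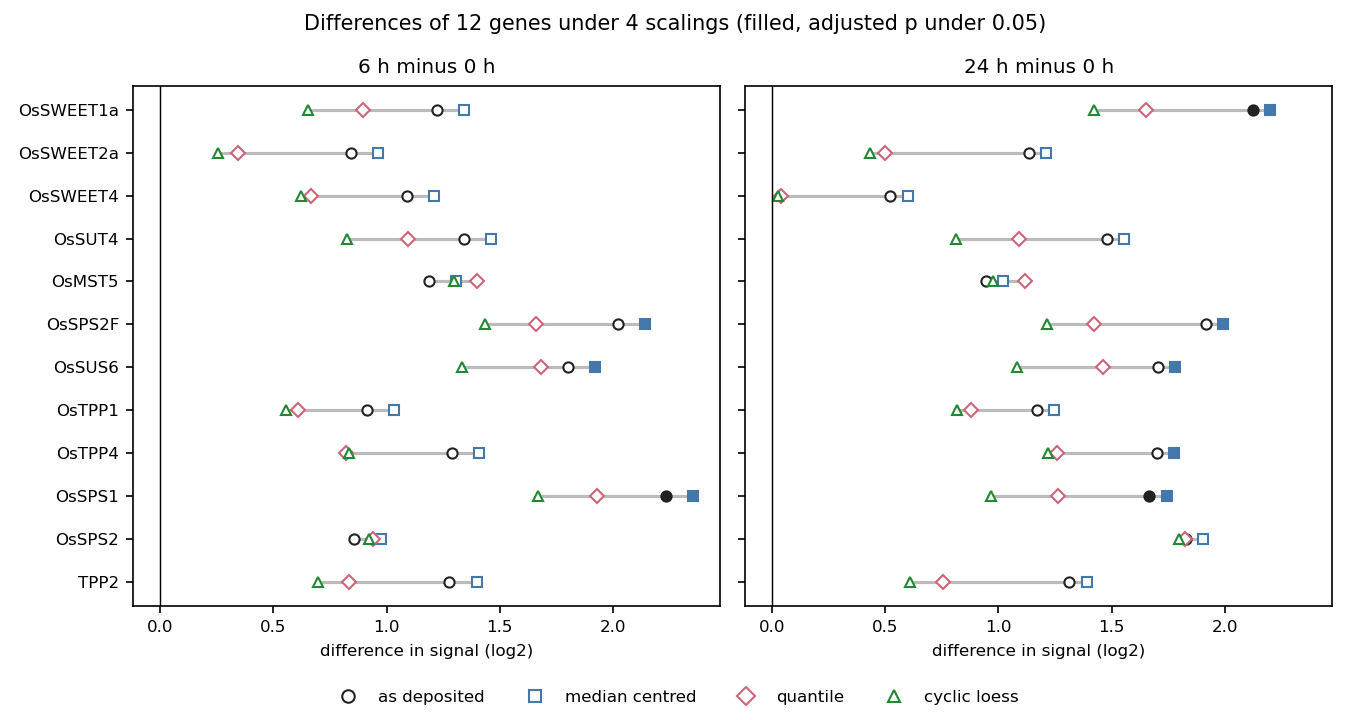
Log2 difference from 0 h at 6 h and 24 h for 12 genes under 4 scalings of the arrays (as deposited, quantile normalization, cyclic loess, median centring); filled points have an adjusted p under 0.05. OsSWEET1a at 24 h reads 2.12 as deposited, 1.65 with quantile normalization and 1.42 with cyclic loess, and no gene is filled under those last settings.

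Other genes of sugar use were counted in lists by symbol. Of 8 hexokinases, the enzymes that bring hexoses into metabolism, 7 read higher at each time as deposited and 0 passed. Their medians were 0.26 and 0.41, beside 61.4% and 64.3% of all genes higher and medians of 0.20 and 0.26. The count depended on the scaling. HXK2/HXK6 at 24 h turned from 0.27 to -0.38 with quantile normalization and to -0.42 with cyclic loess. HXK5, known as a glucose sensor in rice, read 5.00 and 3.43 at 0 h, 6.14 and 5.57 at 6 h, and 6.07 and 6.08 at 24 h. Its treated arrays lay above both of its distant controls, and it differed by 1.64 and 1.86 (limma adjusted p = 0.138 and 0.0957). Without the second control array HXK5 differed by 0.85 and 1.07, and without the first by 2.42 and 2.65 (adjusted p = 0.0244 and 0.0228). Of 2 fructokinases, 2 neutral or vacuolar invertases and 6 starch synthesis genes 0 passed at either time. The invertase CINV1 differed by 0.75 at 6 h and 0.55 at 24 h, with controls of 7.12 and 5.65. Without the first control array CINV1 differed by 1.49 and 1.28, and without the second by 0.02 and -0.19.

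Of 5 alpha-amylases, which break down starch, 0 passed. At 6 h 3 read lower and 2 higher (median -0.47), and at 24 h 5 of 5 read lower (median -0.49). Of all 14662 genes, 5666 read lower at 6 h and 5235 at 24 h. AMY3D, an amylase known to be induced by sugar starvation, read 5.82 and 3.38 at 0 h, 2.85 and 3.10 at 6 h, and 2.51 and 2.64 at 24 h. Its controls were far apart and lay above all treated arrays, and its 24 h difference was -2.02 (limma adjusted p = 0.144). Without the first control array AMY3D differed by -0.81 at 24 h (adjusted p = 0.178), and without the second by -3.24 (0.0200). Of 5 sugar signalling genes 1 passed at each time, while 2.09% of all genes rose at 6 h and 2.97% at 24 h. OsCIPK15, a kinase that links low oxygen to sugar signalling in rice, rose by 2.73 at 6 h and 2.81 at 24 h (limma adjusted p = 0.0154 and 0.0174). With cyclic loess the OsCIPK15 difference at 24 h was 2.18 and did not pass (limma adjusted p = 0.0502). The fit to only the 4 arrays compared also lost the 24 h call, as did leaving out any treated array. At 6 h the OsCIPK15 call was lost when an array of 6 h was left out. OSK1, a catalytic subunit of the SnRK1 energy sensor, differed by 1.05 and 1.03 (limma adjusted p = 0.325 and 0.300), with controls of 5.23 and 3.51. Without the first control array OSK1 differed by 1.91 and 1.89, and without the second by 0.19 and 0.17.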

How the data were processed

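Root RNA was hybridised to 6 Affymetrix arrays. The authors deposited logarithmic signals, 1 per probe set and array, taken here as log2 since they span 0.65 to 13.36; the base is not stated. Affymetrix Expression Console was used, per the submitters' processing notes. Its version and its steps (summarisation, background, normalization) are not given in the sources here. No detection call was used, so the distance of low signals from background is unknown.

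Gene names came from the platform annotation (15299 with 1 gene, 436 with several, 26035 with none), and symbols from RefSeq's genes of assembly ASM3414082v1, where all 35 genes were found by gene number. A further 14 names of the rule had no probe set with exactly 1 gene and were not analysed here. The members and lists were chosen with earlier results of these data known.

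The deposited values were fitted in limma 3.58.1 (R 4.3.3) with 1 mean per time, which left 3 residual degrees of freedom to which eBayes added 5.08. Each treated time was set against 0 h, and 24 h against 6 h. Errors are standard errors and intervals are at 95%. The number of arrays, 2 per time, limits the precision. The fit was also run on simulated data, in which each probe set had the same spread at every time. That setting cannot test the scaling of the arrays. Genes given in full are those past the threshold, then those with the smallest unadjusted p up to 12, with OsSWEET1a and OsSPS1 always among them; of each other list, those past the threshold and up to 3 by unadjusted p could be named. Other genes whose array values are printed (OsSWEET2b, OsSWEET11, OsMST3, OsSUS1, OsSUS4, OsCIN6 and OsTPP7) were picked after their values were seen. Alternatives were quantile normalization, cyclic loess, median centring, leaving out the lowest 33.3% of probe sets, an intensity trend with robust estimation, array weights, only the 4 arrays compared, a fold of at least 2, a block for the replicate number, 1 probe set per gene, the other probe sets of genes with several, and each array left out. Plots were drawn with Python 3.11.15 and matplotlib 3.10.9.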

Additional observations from a re-analysis of the deposited data

How the results depend on the processing

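The direction of the 12 genes given in full did not reverse under any alternative at 6 h or 24 h, but calls did change, and the cause was not tested. Over all probe sets, 641 were called at 6 h and 925 at 24 h. Quantile normalization called 81 at 6 h and 24 at 24 h, cyclic loess 119 and 52, and the fit to only the 4 arrays compared 81 and 0. Array weights called 187 and 1502. Median centring called 1146 at 6 h and the intensity trend with robust estimation 1062. Leaving out 1 array at a time gave 0 to 2249 calls at 6 h and 0 to 2793 at 24 h. The highest counts came without the first control array, and the counts of 0 without an array of 6 h (6 h) or without any treated array (24 h). Of the 35 genes, 1 was called at 6 h and 2 at 24 h. Quantile normalization, cyclic loess and the 4 arrays alone called 0 at each time. Median centring called 3 at 6 h and 5 at 24 h, leaving out the lowest 33.3% of probe sets 3 and 4, 1 probe set per gene 3 and 5, and the intensity trend 2 and 5. Array weights called 6 at 24 h. Leaving out 1 array gave 0 to 3 calls at 6 h and 0 to 5 at 24 h, again most without the first control array. OsSPS1 passed in 9 of 16 alternatives at 6 h (adjusted p 0.0150 to 0.195) and in 8 of 16 at 24 h (0.0297 to 0.404), and OsSWEET1a in 8 of 16 at 24 h (0.0253 to 0.404). Between 24 h and 6 h, 0 genes and probe sets were called under the 16 alternatives. Of these 16, the fold of at least 2 reused the adjusted p of the main fit. Its outcome in the counts for OsSPS1, OsSWEET1a and OsSPS2F was therefore fixed in advance. Replicate numbers were not shown to pair the arrays, since deviations of same-numbered arrays correlated at 0.0467 (6 h with 0 h), 0.0333 (24 h with 0 h) and 0.155 (24 h with 6 h). With the replicate block, 384 probe sets were called at 6 h and 570 at 24 h, and 1 of the 35 genes at 24 h, where OsSPS1 was lost (adjusted p = 0.0544). Signal over background was not used here, so the depth of low signals such as OsSWEET15 or OsSUS3 stays unmeasured.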
